A study of Mus musculus with 24 samples.

Results

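The genes described here are 45 genes of antioxidant defence in mouse alveolar macrophages, chosen by symbol from a given list and followed through 8 cytokine treatments. They were 45 of the 17017 genes in the tables. By role, 5 were regulators of the Nrf2 pathway, 12 belonged to the thioredoxin and peroxiredoxin system, 13 to glutathione supply and use, and 15 to detoxification. A gene was tested where at least 3 libraries reached 1 TPM, a transcript abundance scaled to gene length and library size, and 41 of the 45 did so. The other 4, Cth and Ggt5 of glutathione metabolism and the glutathione transferases Gsta3 and Gsta4, stood on at most 21 recovered reads in any library.

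Alveolar macrophages are the resident phagocytes of the lung's air spaces. The cells were primary, wild type and of strain BALB/cJ, and all were collected 20 h after stimulation. The 8 groups of 3 libraries were cells given rIL-33, rIL-13 and rIL-17A together (the triple combination), IL-33+IL-13, IL-13+IL-17A, IL-13, IL-33+IL-17A, IL-33, IL-17A, and untreated cells. The series title is about lung fibroblasts that answer these cytokines and activate macrophages, but these libraries are of macrophages that received the cytokines directly. The labels used here give no dose, age or number of animals, and do not say whether the libraries of a group are separate animals, cultures or technical repeats.

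Nrf2, the product of Nfe2l2, is a transcription factor that Keap1 holds in the cytoplasm and sends for degradation. Oxidants and electrophiles modify Keap1, Nrf2 then accumulates, pairs with a small Maf protein such as that of Mafg, and binds antioxidant response elements, sites that Bach1 can occupy as a repressor. Its textbook targets make glutathione (Gclc, Gclm, Slc7a11), keep the thioredoxin system reduced (Txnrd1, Srxn1, Prdx1) and detoxify quinones and electrophiles (Nqo1, the glutathione transferases). In macrophages these enzymes are known for limiting damage from the oxidants that the cells themselves make when they take up particles and microbes.

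The promoters of 4 induced genes of the thioredoxin and glutathione systems are shown because each holds the letters of an antioxidant response element. Each window runs from 250 bases before to 50 bases after a start site, in RefSeq's GRCm38.p6, which is the mm10 genome, and is printed 5′ to 3′ on the plus strand, the strand of the gene. Capitals mark matches on either strand to TGACNNNGC, the core of the element, or to TGAGTCAGC. An AP-1 site (TGAGTCA, or TGACTCA on the other strand) can lie inside both motifs. The windows are chr2:152105274-152105573 for Srxn1, chr4:116685349-116685648 for Prdx1, chr3:122245307-122245606 for Gclm and chr10:82858956-82859255 for Txnrd1, which has 3 windows in the table.
Srxn1: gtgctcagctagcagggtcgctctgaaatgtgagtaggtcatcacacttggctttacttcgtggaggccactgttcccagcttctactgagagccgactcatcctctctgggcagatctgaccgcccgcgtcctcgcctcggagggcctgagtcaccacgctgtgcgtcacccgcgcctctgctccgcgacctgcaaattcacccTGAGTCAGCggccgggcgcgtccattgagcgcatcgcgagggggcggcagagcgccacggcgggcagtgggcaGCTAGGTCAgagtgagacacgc
Prdx1: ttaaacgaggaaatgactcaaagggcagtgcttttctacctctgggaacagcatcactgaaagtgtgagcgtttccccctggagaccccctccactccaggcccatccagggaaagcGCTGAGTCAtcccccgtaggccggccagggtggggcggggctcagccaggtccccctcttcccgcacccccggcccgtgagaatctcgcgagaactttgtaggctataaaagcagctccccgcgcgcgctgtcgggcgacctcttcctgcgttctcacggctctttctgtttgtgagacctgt
Gclm: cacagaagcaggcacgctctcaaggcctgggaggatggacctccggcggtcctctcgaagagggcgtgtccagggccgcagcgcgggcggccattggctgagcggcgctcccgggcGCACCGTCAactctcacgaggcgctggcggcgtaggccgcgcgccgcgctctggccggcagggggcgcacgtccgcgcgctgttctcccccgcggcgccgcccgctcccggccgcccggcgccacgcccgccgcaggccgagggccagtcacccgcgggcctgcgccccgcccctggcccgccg
Txnrd1: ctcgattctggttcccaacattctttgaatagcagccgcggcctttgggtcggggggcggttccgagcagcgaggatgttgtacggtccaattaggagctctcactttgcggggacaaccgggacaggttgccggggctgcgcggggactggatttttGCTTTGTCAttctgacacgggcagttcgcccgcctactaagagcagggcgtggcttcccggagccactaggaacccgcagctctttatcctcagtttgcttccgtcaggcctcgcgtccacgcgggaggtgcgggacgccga
Srxn1 holds a match to each motif, and the other 3 promoters hold a TGACNNNGC match on the opposite strand. Of the 45 genes, 38 had a promoter in the RefSeq table, and 10 of these 38 (26.3%) held TGACNNNGC, against 14% of the 27025 genes in the table. The longer TGAGTCAGC was in 2 of the 38 (Srxn1 and Gstp1, 5.26%), against 0.481% of all genes. TGACNNNGC was in 5 of the 18 promoters (27.8%) of genes called lower with IL-33 beside IL-13, the comparison given further on, and in 5 of the 20 others (25%). The 45 genes were listed as antioxidant and Nrf2 genes, and several are textbook targets. Their shares above those of all genes are therefore tied to the list and are not a result of these libraries. A match describes the letters of a window and does not show that a factor binds there.

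The libraries held 9.11 to 12.9 M recovered reads (median 10.6 M) and 11569 to 12204 genes at 1 TPM or more. In a principal component analysis the libraries with IL-13 lay on one side of the first component (26.4% of the variance) and those without on the other. The second component (8.89%) set replicate 2 of the triple combination apart at a score of 43.3, with untreated replicate 1 (22.3) and IL-17A replicate 2 (20.3) next. Of 12 alveolar macrophage markers 11 were tested, and their summed level was 15713 to 17274 TPM with IL-13 and 12944 to 14778 TPM without it. The twelfth, Marco, was under 1 TPM in every library. The markers in this sum moved both ways. From untreated cells to IL-13 alone, mean Ear2 went from 687 to 4191 TPM and mean Itgax from 1665 to 2291 TPM. Over the same groups Lyz2, the leading gene, went from 11020 to 9269 TPM and Siglecf from 531 to 303 TPM. Of the fibroblast markers Pdgfra alone was tested, and the summed list stood at 2.31 to 4.22 TPM with IL-13 and 4.76 to 6.78 TPM without it. The epithelial sum, led by Hopx, was 9.26 to 15.9 TPM with IL-13 and 17.5 to 20.5 TPM without it. The granulocyte and mast cell sum, nearly all S100a8, was 64.9 to 124 TPM with IL-13 and 129 to 170 TPM without it. The single lymphocyte marker in the tables, Gata3, stayed under 0.25 TPM. The endothelial and dendritic cell sums overlapped between the libraries with and without IL-13. Among the 12 libraries with IL-13, the 6 with IL-33 overlapped the 6 without IL-33 in the epithelial, granulocyte, fibroblast and macrophage sums. The dendritic cell sum, nearly all Clec9a, did not overlap there, at 1.06 to 2.67 TPM in the 6 with IL-33 and IL-13 and 2.73 to 4.34 TPM in the 6 with IL-13 and no IL-33. The part of these other cells in the results below was not tested, and in such bulk RNA fewer cells of a type and less RNA per cell cannot be told apart.

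IL-13 was first set against the same stimulation without it. Each library without IL-13 serves as control for its own background, so the 4 comparisons (IL-13 alone, beside IL-17A, beside IL-33, and beside both) share no library. With IL-13 alone 8 of the 12 thioredoxin and peroxiredoxin genes and 7 of the 11 tested glutathione genes were called higher, among them both subunits of glutamate-cysteine ligase, the cystine transporter Slc7a11, glutathione synthetase, thioredoxin reductase, sulfiredoxin and the peroxiredoxins Prdx1, Prdx3 and Prdx6. The transcript of Nrf2 itself was lower, as were the peroxide-reducing Prdx4, Prdx5 and Gpx3, the mu-class glutathione transferases and the cysteine dioxygenase Cdo1. Over all tested genes 14.1% were called higher and 15.7% lower with IL-13 alone. Beside IL-33, 2 of these 12 and 3 of these 11 were called higher, and 4 and 2 lower. Over all tested genes 11.2% were called higher there and 12.8% lower. The effect of IL-33 with and without IL-13 was compared in an interaction. Fold changes below are of log2(TPM + 1), so that they are too small for genes near 1 TPM, and a gene was called at a limma adjusted p under 0.05.

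With IL-13 alone 20 of the 41 tested genes rose and 9 fell, where 29.8% of all 13215 tested genes were called, 14.1% higher and 15.7% lower. The median log2 fold change of the 41 was 0.093, against -0.029 over all tested genes. Beside IL-17A, 18 rose and 8 fell (29.8% of all genes called, 12.2% higher and 17.6% lower), with a median of 0.10 against -0.041. Beside IL-33, 6 rose and 13 fell (23.9% called, 11.2% higher and 12.8% lower), with a median of -0.053 against -0.023. Beside both, 8 rose and 13 fell (32.7% called, 11% higher and 21.7% lower), with a median of -0.069 against -0.094. The share of these genes that rose was therefore above the background share in the 2 backgrounds without IL-33, at 48.8% and 43.9%, and nearer to it in the 2 with IL-33, at 14.6% and 19.5%. The number that rose with IL-33 present depended on the processing. Beside both other cytokines, Txnrd1, Gclc, Slc7a11 and Nqo1 were also called higher with median-ratio scaling of the libraries and by voom. Beside IL-33, Txnip, Gclc and Slc7a11 were gained and Gpx4 was lost with median-ratio scaling. Averaged over the 4 backgrounds 20 rose and 12 fell, where 50.9% of all genes were called, 20% higher and 30.9% lower.

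**Figure D1:**
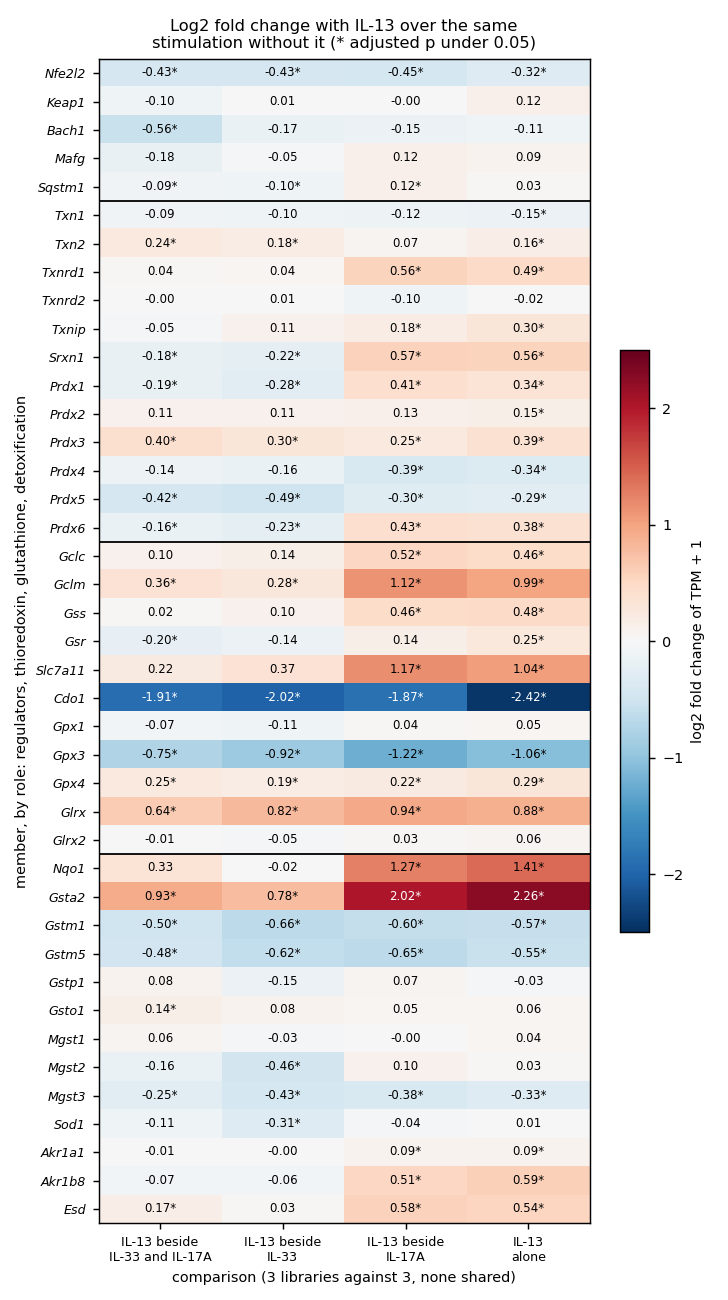
Log2 fold change of TPM + 1 with IL-13 over the same stimulation without it, for the 41 tested genes (rows, grouped by role) in 4 comparisons of 3 libraries against 3 that share none (columns). Stars mark an adjusted p under 0.05; Nqo1 is at 1.41 with IL-13 alone and -0.02 beside IL-33, while Glrx is between 0.64 and 0.94 in all 4.

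In role, 0 of the 5 regulators rose and 2 fell in the average over backgrounds, 8 of 12 thioredoxin and peroxiredoxin genes rose and 3 fell, 6 of 11 tested glutathione genes rose and 2 fell, and 6 of 13 tested detoxification genes rose and 5 fell. Beside IL-33, 2 of the 12 thioredoxin and peroxiredoxin genes rose and 4 fell, and 3 of the 11 glutathione genes rose and 2 fell. Beside both other cytokines 2 of the 12 rose and 4 fell, and 3 of the 11 rose and 3 fell. Of the 13 detoxification genes 1 rose and 5 fell beside IL-33, and 3 rose and 3 fell beside both. Over all tested genes 11.2% rose and 12.8% fell beside IL-33, and 11% rose and 21.7% fell beside both. Higher in all 4 backgrounds were 5 genes, Gclm, Glrx, Gpx4, Prdx3 and Gsta2. Lower in all 4 were 7, Nfe2l2, Prdx5, Cdo1, Gpx3, Gstm1, Gstm5 and Mgst3. Called higher in some backgrounds and lower in others were 5, Sqstm1, Srxn1, Prdx1, Prdx6 and Gsr. Another 7 (Keap1, Mafg, Txnrd2, Gpx1, Glrx2, Gstp1 and Mgst1) were called in none. Shares over all tested genes were not computed for the counts in all 4, in opposite directions and in none. These counts are therefore not set against a background. The 12 libraries with IL-13 did not overlap the 12 without in 11 of the 41 genes, against 15.1% of all tested genes. The 11 include Cdo1 and Gsta2, which passed the filter only through the groups where they are high. Their separation is therefore tied to the filter, and both are also in the counts over all 4 backgrounds.

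Among the regulators, Nfe2l2 (ENSMUSG00000015839, chromosome 2, bases 75675513 to 75704641, minus strand) was lower wherever IL-13 was given. It had 87.1, 84.3 and 90.6 TPM with the triple combination, 88.7, 97.2 and 85.2 TPM with IL-33+IL-13, 93.4, 91.4 and 87.6 TPM with IL-13+IL-17A and 93.5, 90.7 and 92.6 TPM with IL-13. Without IL-13 it had 115, 121 and 117 TPM with IL-33+IL-17A, 118, 121 and 126 TPM with IL-33, 122, 120.3 and 130.5 TPM with IL-17A and 110.2, 117 and 118 TPM in untreated cells. All 12 libraries with IL-13 were below all 12 without it. The log2 fold change was -0.32 (SE 0.0466, adjusted p = 2.86e-05) with IL-13 alone and lay between -0.45 and -0.43 in the other 3 backgrounds.

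Keap1, the inhibitor of Nrf2, was called in no comparison. Its libraries ran 95.1, 73.8 and 95.5 TPM with the triple combination, 91.3, 97.1 and 90.5 TPM with IL-33+IL-13, 98.3, 87.4 and 97.5 TPM with IL-13+IL-17A and 103, 95.3 and 97.7 TPM with IL-13. The groups without IL-13 ran 96.1, 93.4 and 91.6 TPM with IL-33+IL-17A, 88.2, 97.7 and 91.2 TPM with IL-33, 93.2, 92.6 and 97.2 TPM with IL-17A and 82.7, 92.5 and 96.6 TPM in untreated cells. The groups overlap throughout, and the log2 fold change averaged over backgrounds was 0.0091 with a 95% interval of -0.074 to 0.092. Bach1, the repressor, averaged -0.25 on the log2 scale (limma adjusted p = 0.014). By background it was called beside both other cytokines (-0.56 (SE 0.16, adjusted p = 0.0117)), with 32.9, 18.6 and 34.2 TPM with the triple combination against 40.6, 43.1 and 39.8 TPM with IL-33+IL-17A. Without replicate 2 of the triple combination, the lowest library, the value was -0.29 and that call was lost (adjusted p = 0.0671). Without all 3 libraries that stood apart on the second component it was called lower in all 4 backgrounds, at -0.24 (limma adjusted p = 0.00952) with IL-13 alone, -0.26 (adjusted p = 0.00537) beside IL-17A, -0.17 (adjusted p = 0.0376) beside IL-33 and -0.29 beside both (adjusted p = 0.00349). Mafg, a Maf partner of Nrf2, was not called, at -0.0026 with an interval of -0.10 to 0.10.

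Sqstm1 encodes p62, which binds Keap1 and hands it to autophagy. It had 509, 492 and 494 TPM with the triple combination, 489.9, 509 and 487 TPM with IL-33+IL-13, 569.6, 564 and 573 TPM with IL-13+IL-17A and 561, 549.6 and 540.2 TPM with IL-13. The groups without IL-13 had 537, 525 and 526 TPM with IL-33+IL-17A, 524, 528 and 541 TPM with IL-33, 539.6, 517 and 517 TPM with IL-17A and 524, 546 and 548 TPM in untreated cells. The 6 libraries with IL-33 and IL-13 were the lowest of the 24, and the libraries without IL-13 overlapped those with IL-13 and no IL-33. Its log2 fold change with IL-13 was 0.029 alone (limma adjusted p = 0.449), 0.12 beside IL-17A (adjusted p = 0.00137) and -0.10 beside IL-33 (adjusted p = 0.00605), and the call beside IL-33 was lost with median-ratio scaling of the libraries (adjusted p = 0.161). Sqstm1 overlaps Mrnip on the other strand, and the handling of strand is not given in the sources used here, so reads of the 2 cannot be told apart.

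**Figure D2:**
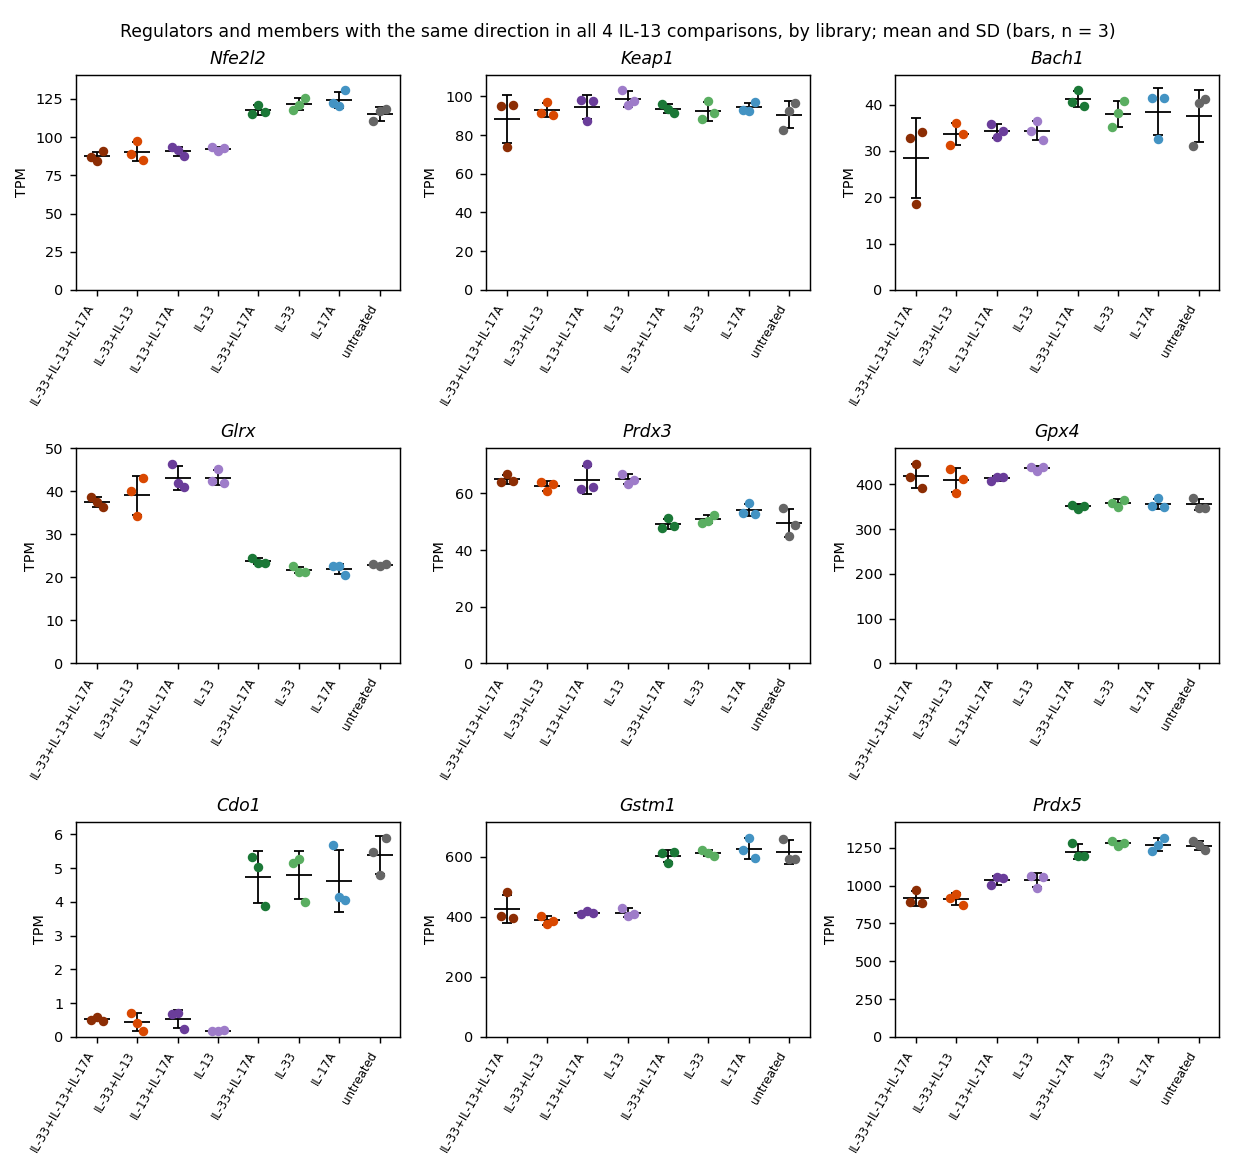
TPM in each of the 24 libraries (points), with the mean and SD of the 3 libraries of a group (bars), for 3 regulators and 6 genes with the same direction in all 4 IL-13 comparisons; groups run from the triple combination on the left to untreated cells on the right. Nfe2l2 is at 84.3 to 97.2 TPM in the 12 libraries with IL-13 and 110.2 to 130.5 TPM in the 12 without, and the Bach1 point at 18.6 TPM is replicate 2 of the triple combination.

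In the thioredoxin and peroxiredoxin system, the gene with the largest change with IL-13 alone was Srxn1 (ENSMUSG00000032802, chromosome 2, bases 152105516 to 152111376, plus strand), which encodes sulfiredoxin, the enzyme that repairs over-oxidised peroxiredoxins. It had 669.6, 594 and 658 TPM with the triple combination, 617, 673 and 651 TPM with IL-33+IL-13, 998, 1027 and 1055 TPM with IL-13+IL-17A and 991, 1015 and 1028 TPM with IL-13. In the absence of IL-13 there were 743, 712 and 717 TPM with IL-33+IL-17A, 737, 765 and 762 TPM with IL-33, 703, 649 and 724 TPM with IL-17A and 622, 721 and 711 TPM in untreated cells. The 6 libraries with IL-13 and no IL-33 stood above all 18 others. Its mean was 1.48-fold that of untreated cells with IL-13 alone, a log2 fold change of 0.56 (SE 0.0539, adjusted p = 1.22e-07). Beside IL-33 the sign was negative, -0.22 (SE 0.0539, adjusted p = 0.00438). Against untreated cells Srxn1 was not called with IL-33+IL-13 (-0.080, limma adjusted p = 0.327) or the triple combination (-0.096, adjusted p = 0.21). Without the 3 libraries that stood apart on the second component both were called lower (-0.15 and -0.11, adjusted p = 0.00349 and 0.0395).

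Prdx1, a cytosolic peroxiredoxin that breaks down hydrogen peroxide, followed the same order. It had 953, 1026 and 932 TPM with the triple combination, 975, 936 and 968 TPM with IL-33+IL-13, 1382, 1441 and 1365 TPM with IL-13+IL-17A and 1391, 1364 and 1449 TPM with IL-13. Libraries not given IL-13 had 1106, 1083 and 1119 TPM with IL-33+IL-17A, 1127, 1201 and 1168 TPM with IL-33, 1015, 1027 and 1105 TPM with IL-17A and 1135, 1078 and 1116 TPM in untreated cells. The IL-13 libraries without IL-33 were again the 6 highest, and those with IL-33 and IL-13 lay below most libraries without IL-13. The log2 fold change with IL-13 was 0.34 (SE 0.0387, adjusted p = 1.44e-06) alone and -0.28 (SE 0.0387, adjusted p = 1.87e-05) beside IL-33.

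Prdx6, a peroxiredoxin that also acts on lipids of the lung, had 72, 67.6 and 61.2 TPM with the triple combination, 61.8, 67.8 and 65.3 TPM with IL-33+IL-13, 96.2, 95.9 and 105 TPM with IL-13+IL-17A and 97, 98.8 and 93.1 TPM with IL-13. Where IL-13 was not given it had 73.1, 75.1 and 76.4 TPM with IL-33+IL-17A, 76.2, 71.2 and 81.2 TPM with IL-33, 74.3, 75 and 70.6 TPM with IL-17A and 73.7, 73.3 and 73.7 TPM in untreated cells. Its log2 fold change was 0.38 (SE 0.0557, adjusted p = 2.36e-05) with IL-13 alone and -0.23 (SE 0.0557, adjusted p = 0.00506) beside IL-33. Beside both other cytokines Srxn1, Prdx1 and Prdx6 were also called lower (-0.18, -0.19 and -0.16), but none of these 3 calls held with median-ratio scaling (adjusted p = 0.159, 0.447 and 0.556), while the 3 calls beside IL-33 alone did. A processed copy, Prdx6-ps2, could share reads with Prdx6.

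Txnrd1, cytosolic thioredoxin reductase, had 109.6, 89.1 and 108 TPM with the triple combination, 101, 108 and 108 TPM with IL-33+IL-13, 142, 137 and 139 TPM with IL-13+IL-17A and 131, 141 and 136 TPM with IL-13. Without IL-13 it had 96.5, 103 and 98.1 TPM with IL-33+IL-17A, 97.8, 102 and 108 TPM with IL-33, 97.5, 87.5 and 98.1 TPM with IL-17A and 87.9, 101 and 101 TPM in untreated cells. The 6 libraries with IL-13 and no IL-33 were above all others, and the libraries with both overlapped those without IL-13. On the log2 scale the change was 0.49 (SE 0.0703, adjusted p = 2.28e-05) with IL-13 alone and 0.044 (adjusted p = 0.742) beside IL-33. Beside both other cytokines it was 0.037 and not called (limma adjusted p = 0.727). That change was called higher with median-ratio scaling (0.14, adjusted p = 0.00762), by voom (0.12, adjusted p = 0.0193) and without the 3 libraries apart (0.13, adjusted p = 0.0306). Txnrd1 overlaps unnamed genes on the other strand and Eid3 on its own.

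Of the other 8 genes of this system, mitochondrial Prdx3 rose in every background, to 64.9 ± 1.77 TPM with IL-13 against 49.6 ± 4.85 TPM in untreated cells (SD, n = 3 each), a log2 fold change of 0.39 (SE 0.0587, adjusted p = 3.97e-05). Txnip, which binds and blocks thioredoxin, rose with IL-13 alone by 0.30 on the log2 scale (limma adjusted p = 7.44e-04) and was not called beside IL-33 (0.11). With median-ratio scaling Txnip was called higher beside IL-33 (0.13, limma adjusted p = 0.0114). Prdx4, the peroxiredoxin of the endoplasmic reticulum, fell by 0.34 with IL-13 alone (limma adjusted p = 5.95e-04), and Prdx5 fell in every background, by 0.29 with IL-13 alone and by 0.49 beside IL-33. Txn1, cytosolic thioredoxin, was at -0.15 with IL-13 alone (limma adjusted p = 0.0264), a call lost with median-ratio scaling (adjusted p = 0.342). The mitochondrial Txn2 rose by 0.16 over the 4 backgrounds (limma adjusted p = 5.10e-06), Prdx2 by 0.12 (adjusted p = 6.79e-04), and the mitochondrial reductase Txnrd2 was not called (-0.029, interval -0.088 to 0.03).

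In glutathione supply and use 7 of 11 tested genes rose and 2 fell with IL-13 alone. Over all tested genes 14.1% rose and 15.7% fell. Gclm (ENSMUSG00000028124, chromosome 3, bases 122245557 to 122270732, plus strand) encodes the modifier subunit of glutamate-cysteine ligase, the first and rate-limiting step of glutathione synthesis. It had 44.8, 38.8 and 40.4 TPM with the triple combination, 39, 40.6 and 39.8 TPM with IL-33+IL-13, 66.6, 64.8 and 64.6 TPM with IL-13+IL-17A and 61.2, 65.6 and 63.2 TPM with IL-13. The groups without IL-13 had 33.9, 29.9 and 32 TPM with IL-33+IL-17A, 31.3, 33 and 33.9 TPM with IL-33, 28.5, 29.6 and 30.6 TPM with IL-17A and 29.6, 31.5 and 32.8 TPM in untreated cells. The groups formed 3 levels that did not overlap: IL-13 without IL-33 was highest, IL-13 with IL-33 lay between, and the 12 libraries without IL-13 were lowest. Its mean was 2.02-fold that of untreated cells with IL-13 alone (0.99 (SE 0.0539, adjusted p = 4.26e-11) on the log2 scale) and 1.22-fold beside IL-33 (0.28 (SE 0.0539, adjusted p = 7.30e-04)).

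Gclc, the catalytic subunit of the same ligase, had 21.3, 17.6 and 22.3 TPM with the triple combination, 21.1, 21.1 and 22.2 TPM with IL-33+IL-13, 25.4, 25.4 and 25.4 TPM with IL-13+IL-17A and 24.9, 26.2 and 24.8 TPM with IL-13. In the absence of IL-13 there were 17.7, 19.5 and 19.3 TPM with IL-33+IL-17A, 18.1, 19.7 and 20.3 TPM with IL-33, 19.4, 15.6 and 17.3 TPM with IL-17A and 16.3, 20.0 and 18.3 TPM in untreated cells. The 6 libraries with IL-13 and no IL-33 were above all others. Its log2 change was 0.46 (SE 0.0842, adjusted p = 2.90e-04) with IL-13 alone and 0.14 (adjusted p = 0.262) beside IL-33. With median-ratio scaling Gclc was called higher beside IL-33 (0.16, limma adjusted p = 0.0289) and beside both other cytokines (0.20, adjusted p = 0.00601), and the call beside both was also made by voom (adjusted p = 0.0117) and without the 3 libraries apart (adjusted p = 0.0159).

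Slc7a11, the cystine carrier of the exchanger xCT that brings in the cysteine for glutathione, had 7.85, 5.09 and 7.87 TPM with the triple combination, 7.24, 8.03 and 7.77 TPM with IL-33+IL-13, 11.9, 11.4 and 11.7 TPM with IL-13+IL-17A and 10.9, 11.9 and 10.7 TPM with IL-13. Libraries not given IL-13 had 5.23, 6.28 and 5.66 TPM with IL-33+IL-17A, 5.37, 5.97 and 5.88 TPM with IL-33, 4.9, 3.74 and 5.38 TPM with IL-17A and 3.9, 5.55 and 5.45 TPM in untreated cells. The lowest library in each of 3 groups was one of the 3 that stood apart on the second component. Its mean was 2.24-fold that of untreated cells with IL-13 alone, 1.04 (SE 0.134, adjusted p = 6.26e-06) on the log2 scale, and the change beside IL-33 was not called (0.37, adjusted p = 0.0569). It was called higher there with median-ratio scaling (adjusted p = 0.00844), by voom (0.00477), in the compared groups only (0.0141) and without the 3 libraries apart (2.01e-04), and in 3 of the 24 fits that left out 1 library. Beside both other cytokines the change was 0.22 and not called (limma adjusted p = 0.223). That change was called with median-ratio scaling (adjusted p = 0.0265), by voom (0.0171) and without the 3 libraries apart (2.71e-04). Several unnamed genes lie within its span on both strands.

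Gss, glutathione synthetase, rose by 0.48 on the log2 scale with IL-13 alone (limma adjusted p = 3.62e-05) and was at 0.10 beside IL-33, and it overlaps Acss2 on the other strand. Gsr, the reductase that regenerates glutathione, was called at 0.25 with IL-13 alone (limma adjusted p = 0.00243) and -0.20 beside both (adjusted p = 0.0123, or 0.153 with median-ratio scaling). It was not called beside IL-17A (0.14, adjusted p = 0.0735) or beside IL-33 (-0.14, adjusted p = 0.101). The value beside IL-17A was called with median-ratio scaling (adjusted p = 0.0112) and by voom (0.0425).

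Glrx, glutaredoxin, which removes glutathione from proteins, rose in every background. It had 38.8, 37.5 and 36.4 TPM with the triple combination, 40.1, 34.2 and 43.1 TPM with IL-33+IL-13, 46.3, 41.9 and 41 TPM with IL-13+IL-17A and 42.3, 45.2 and 42 TPM with IL-13. Where IL-13 was not given it had 24.5, 23.4 and 23.2 TPM with IL-33+IL-17A, 22.5, 21.3 and 21.4 TPM with IL-33, 22.5, 22.7 and 20.7 TPM with IL-17A and 23.1, 22.7 and 23.1 TPM in untreated cells. All 12 libraries with IL-13 were above all 12 without. The log2 fold change was 0.88 (SE 0.0652, adjusted p = 3.55e-09) with IL-13 alone and 0.82 (SE 0.0652, adjusted p = 1.47e-08) beside IL-33. Gpx4, the peroxidase that clears lipid hydroperoxides from membranes, also parted the 12 libraries from the 12, at 381, 417 and 446 TPM (lowest, median and highest) with IL-13 and 345, 352 and 370.3 TPM without. Its average log2 fold change was 0.24 (limma adjusted p = 3.40e-08), and its call beside IL-33 was lost with median-ratio scaling (adjusted p = 0.0717). A pseudogene, Gpx4-ps2, could share its reads.

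Cdo1 encodes cysteine dioxygenase, which oxidises cysteine and so draws it away from glutathione, and it fell most of all 41. It had 0.514, 0.581 and 0.472 TPM with the triple combination, 0.718, 0.405 and 0.19 TPM with IL-33+IL-13, 0.688, 0.703 and 0.237 TPM with IL-13+IL-17A and 0.176, 0.182 and 0.201 TPM with IL-13. Without IL-13 it had 5.32, 5.03 and 3.88 TPM with IL-33+IL-17A, 5.15, 5.26 and 3.98 TPM with IL-33, 5.67, 4.14 and 4.05 TPM with IL-17A and 5.46, 4.8 and 5.9 TPM in untreated cells. No library with IL-13 reached 1 TPM, and the gene passed the filter through the groups without it. The counts behind these values were small, 3 to 100 recovered reads a library. The average log2 fold change was -2.06 (SE 0.0775, adjusted p = 3.70e-14).

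Gpx3, the secreted glutathione peroxidase, fell in every background on 19 to 83 recovered reads a library. It had 4.93, 3.12 and 3.51 TPM with the triple combination, 4.27, 3.24 and 3.16 TPM with IL-33+IL-13, 2.28, 2.7 and 3.64 TPM with IL-13+IL-17A and 2.7, 3.38 and 2.44 TPM with IL-13. The groups without IL-13 had 6.93, 6.56 and 7.72 TPM with IL-33+IL-17A, 8.74, 6.44 and 7.64 TPM with IL-33, 8.81, 8.05 and 7.06 TPM with IL-17A and 7.03, 7.24 and 6.62 TPM in untreated cells. All libraries with IL-13 were below all without, and the average log2 fold change was -0.99 (SE 0.0742, adjusted p = 1.25e-09). Gpx1, the cytosolic peroxidase, and Glrx2, the mitochondrial glutaredoxin, were not called with IL-13 (averages -0.023 and 0.0059, intervals -0.068 to 0.022 and -0.061 to 0.072).

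Among the detoxification genes, Nqo1 (ENSMUSG00000003849, chromosome 8, bases 107388225 to 107403206, minus strand), a quinone reductase and common reporter gene of Nrf2 activity, was called higher with IL-13 in both backgrounds without IL-33. It had 3.13, 2.89 and 3.11 TPM with the triple combination, 3.06, 2.94 and 2.96 TPM with IL-33+IL-13, 7.94, 8.23 and 7.89 TPM with IL-13+IL-17A and 8.91, 7.7 and 8.29 TPM with IL-13. In the absence of IL-13 there were 2.49, 3.01 and 1.36 TPM with IL-33+IL-17A, 2.55, 3.7 and 2.93 TPM with IL-33, 2.94, 2.36 and 2.99 TPM with IL-17A and 2.74, 2.34 and 2.42 TPM in untreated cells. The 6 libraries with IL-13 and no IL-33 stood at 7.7 to 8.91 TPM and every other library was at or under 3.7 TPM. The libraries held 18 to 150 recovered reads of it. Its mean was 3.32-fold that of untreated cells with IL-13 alone, 1.41 (SE 0.139, adjusted p = 1.85e-07) on the log2 scale, and 1.27 (SE 0.139, adjusted p = 7.83e-07) beside IL-17A. Beside IL-33 the change was -0.017 with a 95% interval of -0.31 to 0.28, and beside both other cytokines 0.33 (interval 0.041 to 0.63). The change beside both was not called by limma (adjusted p = 0.0747), but it was with median-ratio scaling (0.41, adjusted p = 0.0285), by voom (adjusted p = 0.0436) and without replicate 2 of IL-33+IL-17A, the highest of its group (0.49, adjusted p = 0.0113).

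Gsta2, an alpha-class glutathione transferase, had the largest log2 increase of the 41. It had 1.89, 1.61 and 1.2 TPM with the triple combination, 1.15, 1.61 and 1.98 TPM with IL-33+IL-13, 4.42, 4.43 and 5.58 TPM with IL-13+IL-17A and 5.97, 5.11 and 5.14 TPM with IL-13. Libraries not given IL-13 had 0.586, 0.238 and 0.229 TPM with IL-33+IL-17A, 0.648, 0.403 and 0.434 TPM with IL-33, 0.278, 0.434 and 0.564 TPM with IL-17A and 0.339, 0.471 and 0.204 TPM in untreated cells. Like Gclm it formed 3 levels that did not overlap, with IL-13 without IL-33 at the top and the libraries without IL-13 at the bottom. No library without IL-13 reached 1 TPM, so the gene passed the filter through the groups with IL-13, and it rests on 5 to 166 recovered reads a library. On the log2 scale the change was 2.26 (SE 0.148, adjusted p = 6.24e-10) with IL-13 alone and 0.78 (SE 0.148, adjusted p = 5.35e-04) beside IL-33. Alpha-class transferases are close copies of each other, and some of its reads may belong to relatives such as Gsta1.

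Akr1b8, an aldo-keto reductase that clears reactive aldehydes, had 22.4, 24.5 and 22.7 TPM with the triple combination, 23.8, 21 and 23.3 TPM with IL-33+IL-13, 34.3, 34.4 and 38.3 TPM with IL-13+IL-17A and 35.6, 36.7 and 39 TPM with IL-13. Where IL-13 was not given it had 23.5, 23.8 and 25.8 TPM with IL-33+IL-17A, 23.2, 23.7 and 24.4 TPM with IL-33, 23.7, 24.4 and 26 TPM with IL-17A and 23.7, 25.1 and 24.2 TPM in untreated cells. The 6 libraries with IL-13 and no IL-33 were the highest, and the libraries with both overlapped those without IL-13. Its log2 change was 0.59 (SE 0.0575, adjusted p = 1.63e-07) with IL-13 alone and -0.064 (interval -0.18 to 0.057) beside IL-33. Esd, S-formylglutathione hydrolase, was at 369.8 ± 17 TPM with IL-33+IL-13, 489 ± 13.8 TPM with IL-13 and 337 ± 2.82 TPM in untreated cells (SD, n = 3 each). Its log2 change was 0.54 with IL-13 alone, 0.031 beside IL-33 (not called) and 0.17 beside both other cytokines (limma adjusted p = 0.00312).

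Gstm1, the mu-class transferase, fell. It had 402, 481 and 397 TPM with the triple combination, 404, 376 and 385 TPM with IL-33+IL-13, 408, 417 and 413 TPM with IL-13+IL-17A and 430.4, 401 and 409 TPM with IL-13. Without IL-13 it had 612, 580.2 and 614 TPM with IL-33+IL-17A, 622, 613 and 601 TPM with IL-33, 621, 663 and 594 TPM with IL-17A and 659.6, 590.5 and 593 TPM in untreated cells. All 12 libraries with IL-13 were below all 12 without, with an average log2 fold change of -0.58 (SE 0.0303, adjusted p = 5.01e-12).

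Gstm5, of the same class, had 30.7, 38.8 and 25.7 TPM with the triple combination, 37.3, 22.9 and 33 TPM with IL-33+IL-13, 31.2, 25.4 and 28.7 TPM with IL-13+IL-17A and 28.9, 30.9 and 29.8 TPM with IL-13. The groups without IL-13 had 46, 44.2 and 41.9 TPM with IL-33+IL-17A, 43.1, 48 and 50.8 TPM with IL-33, 38.5, 53.8 and 44.2 TPM with IL-17A and 45.1, 45.5 and 42.2 TPM in untreated cells. The groups overlapped in single libraries, and the average log2 fold change was -0.57 (SE 0.0763, adjusted p = 3.21e-06). Mgst3, a membrane-bound transferase, fell by 0.35 on average (limma adjusted p = 3.25e-07), and the calls of Gstm5 and Mgst3 beside both other cytokines were lost with median-ratio scaling (adjusted p = 0.131 and 0.301). Gsto1 (omega class, 0.084, limma adjusted p = 0.00152) and Akr1a1 (0.042, adjusted p = 0.00296) rose slightly on average. By background Gsto1 was called only beside both other cytokines (0.14, adjusted p = 0.00911). Akr1a1 was called with IL-13 alone (0.090) and beside IL-17A (0.093). It was not called beside IL-33 (-2.7e-04) or beside both (-0.014), and its average was not called by voom (adjusted p = 0.0609). Sod1, cytosolic superoxide dismutase, averaged -0.11 (adjusted p = 0.0111, or 0.298 with median-ratio scaling) and Mgst2 -0.12 (adjusted p = 0.0173, or 0.167). These averages covered unlike backgrounds. With IL-13 alone Sod1 was at 0.013 and Mgst2 at 0.029, and beside IL-17A at -0.042 and 0.10, none of them called. Beside IL-33 both were called lower, at -0.31 (limma adjusted p = 0.00225) and -0.46 (adjusted p = 2.90e-04). Beside both other cytokines they were at -0.11 and -0.16, not called. Gstp1 and Mgst1 were called in no background.

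IL-33, an alarmin whose receptor ST2 signals through MyD88, was then compared in cells that also had IL-13. Here 6 libraries with IL-33 and IL-13 were set against 6 with IL-13 and no IL-33, averaged over the presence and absence of IL-17A. Of the 41 genes 21 fell and 0 rose, where 7.01% of all tested genes were called, 4.48% lower and 2.53% higher. The median log2 fold change was -0.17, against -0.027 over all tested genes. By role 1 of 5 regulators, 6 of 12 thioredoxin and peroxiredoxin genes, 7 of 11 glutathione genes and 7 of 13 detoxification genes fell. In 18 of the 41, all 6 libraries with IL-33 and IL-13 were below all 6 with IL-13 and no IL-33, against 3.68% of all tested genes. The dendritic cell sum given above was also lower in these 6 libraries than in the other 6, and its part in the result was not tested. Left without the 3 libraries that stood apart, the comparison gave 21 lower and 0 higher, and voom on the recovered reads gave 17 lower and 0 higher.

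The 8 genes that fell by 0.5 or more were Nqo1, Gsta2, Srxn1, Gclm, Akr1b8, Slc7a11, Prdx6 and Prdx1, whose libraries are given above. Nqo1 with IL-33+IL-13 was at 0.36 of its mean with IL-13, a log2 fold change over both backgrounds of -1.19 (SE 0.0984, adjusted p = 1.41e-07). Gsta2 was at 0.293 of its mean with IL-13 (-1.25 (SE 0.104, adjusted p = 1.55e-07)). Srxn1 changed by -0.66 (SE 0.0381, adjusted p = 1.61e-09) and Prdx1 by -0.54 (SE 0.0274, adjusted p = 4.02e-10). Gclm changed by -0.65 (SE 0.0381, adjusted p = 1.70e-09), Akr1b8 by -0.64, Slc7a11 by -0.59 and Prdx6 by -0.56. These genes also rose with IL-13 alone, and that comparison shares the IL-13 libraries with this one.

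Smaller decreases passed in Txnrd1 (-0.40), Esd (-0.37), Mgst2 (-0.36), Gss (-0.36), Gsr (-0.30), Sod1 (-0.28), Gclc (-0.27), Txnip (-0.24), Sqstm1 (-0.17) and Akr1a1 (-0.10, limma adjusted p = 1.61e-04, or 0.346 with median-ratio scaling). Prdx5 (-0.18), Gpx1 (-0.18) and Glrx (-0.17) also passed, with limma adjusted p of 5.96e-04, 7.60e-04 and 0.0323, but not with median-ratio scaling (adjusted p = 0.0981, 0.138 and 0.204). Of the genes that IL-13 lowered, Nfe2l2 (-0.043, interval -0.11 to 0.026), Gstm1 (-0.024, interval -0.11 to 0.065) and Cdo1 (0.13, interval -0.10 to 0.36) were not called. Gpx3 (0.28, interval 0.064 to 0.51) and Prdx4 (0.13, interval 0.030 to 0.23), also lowered by IL-13, had intervals above zero. They were not called either (limma adjusted p = 0.131 and 0.128). Keap1 was not called, at -0.10 with an interval of -0.21 to 0.022.

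**Figure D3:**
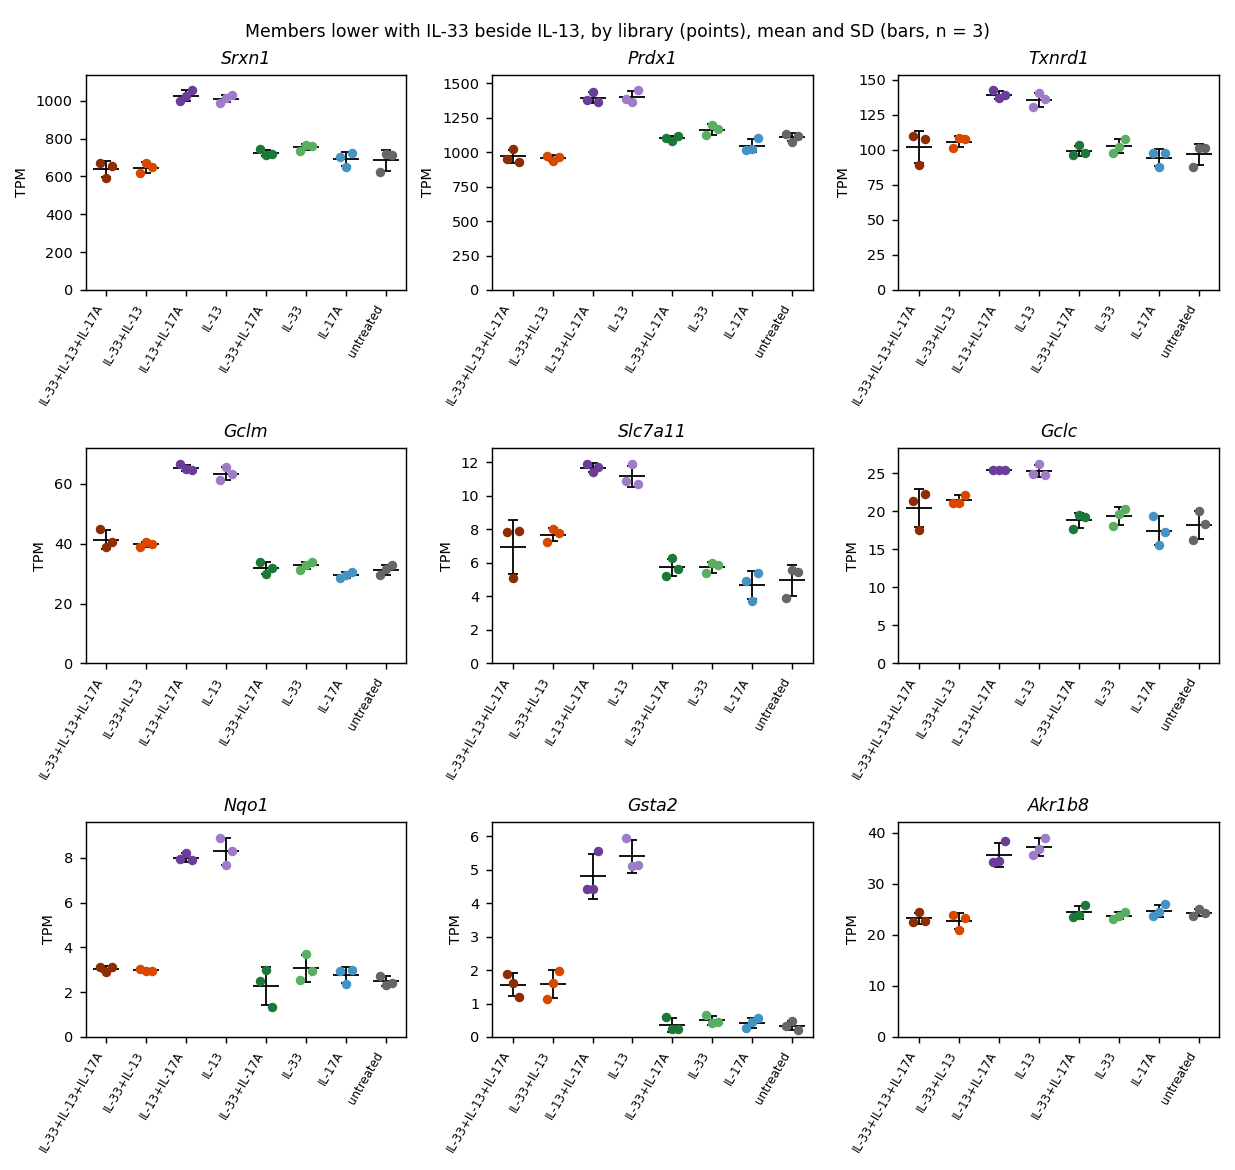
TPM in each of the 24 libraries (points), with the mean and SD of the 3 libraries of a group (bars), for 9 genes that were lower with IL-33 beside IL-13; groups run from the triple combination on the left to untreated cells on the right. In each panel the 6 libraries of IL-13+IL-17A and IL-13 are the highest; Nqo1 is at 7.7 to 8.91 TPM there and at 2.89 to 3.13 TPM in the 6 libraries with IL-33 and IL-13.

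The decrease was seen in both backgrounds, which share no library. IL-33 added to IL-13 lowered 17 of the 41 genes and raised 0, where 1.74% of all tested genes were lower and 0.832% higher. IL-33 added to IL-13+IL-17A also lowered 17 and raised 0, where 2.4% were lower and 1.15% higher. Nqo1 changed by -1.16 with IL-17A and -1.22 without it, Srxn1 by -0.68 with it and -0.64 without, and Gclm by -0.65 with it and -0.66 without. This split was made after the data had been seen.

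The overlap between genes raised by IL-13 and genes lowered by IL-33 can be read from libraries that the lists do not share. Of the 18 genes that rose with IL-13 beside IL-17A, 12 (66.7%) fell with IL-33 added to IL-13, and these were 70.6% of the 17 that fell. Over all tested genes the corresponding shares were 9.73% of the 1614 that rose and 68.3% of the 230 that fell. Of the 20 that rose with IL-13 alone, 15 (75%) fell with IL-33 added to IL-13+IL-17A, which were 88.2% of the 17 that fell. Over all tested genes the shares were 11.9% of 1857 and 69.7% of 317. Of the antioxidant genes that IL-13 lowered, 1 of 8 (12.5%) and 1 of 9 (11.1%) fell with IL-33, against 0.859% of the 2329 and 1.4% of the 2075 that IL-13 lowered over all tested genes.

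IL-33 in cells without IL-13 was called in 0 of the 41 genes and in 0 of all 13215 (0% called). At an unadjusted p under 0.05, 7 of the 41 and 656 of all genes were found by limma, and voom also called 0. The log2 fold changes of the 41 ran from -0.089 to 0.22, and the 95% intervals of all 41 lay within 0.5 of zero. The largest was Slc7a11, at 0.22 (interval 0.02 to 0.42), with 6 libraries at 5.23, 5.77 and 6.28 TPM (lowest, median and highest) with IL-33 and 3.74, 5.14 and 5.55 TPM without. Nqo1 was at -0.0083 (interval -0.21 to 0.20) and Srxn1 at 0.10 (interval 0.024 to 0.18).

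The difference between the IL-33 effect beside IL-13 and without it was itself tested, as an interaction in the same limma fit. It was called in 17 of the 41 genes, all lower, where 3.57% of all tested genes were called, 2.11% lower and 1.46% higher. By role these were 1 regulator (Sqstm1), 5 thioredoxin and peroxiredoxin genes, 5 glutathione genes and 6 detoxification genes. The interaction was -0.77 (SE 0.0539, adjusted p = 6.03e-08) for Srxn1, -0.61 (SE 0.0387, adjusted p = 2.38e-08) for Prdx1, -0.74 (SE 0.0539, adjusted p = 9.74e-08) for Gclm, -1.18 (SE 0.139, adjusted p = 2.95e-05) for Nqo1 and -1.29 (SE 0.148, adjusted p = 1.99e-05) for Gsta2. Txnip, Gpx1, Glrx and Sod1 fell with IL-33 beside IL-13, but the interaction was not called for them (adjusted p = 0.0669, 0.0913, 0.167 and 0.161). The interaction of Txnip was called with median-ratio scaling (-0.18, limma adjusted p = 0.00516), by voom (adjusted p = 0.0278) and in 3 of the 24 fits that left out 1 library. That of Gpx1 was called without the 3 libraries apart (-0.19, limma adjusted p = 0.00341) and in 3 of those 24 fits.

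**Figure D4:**
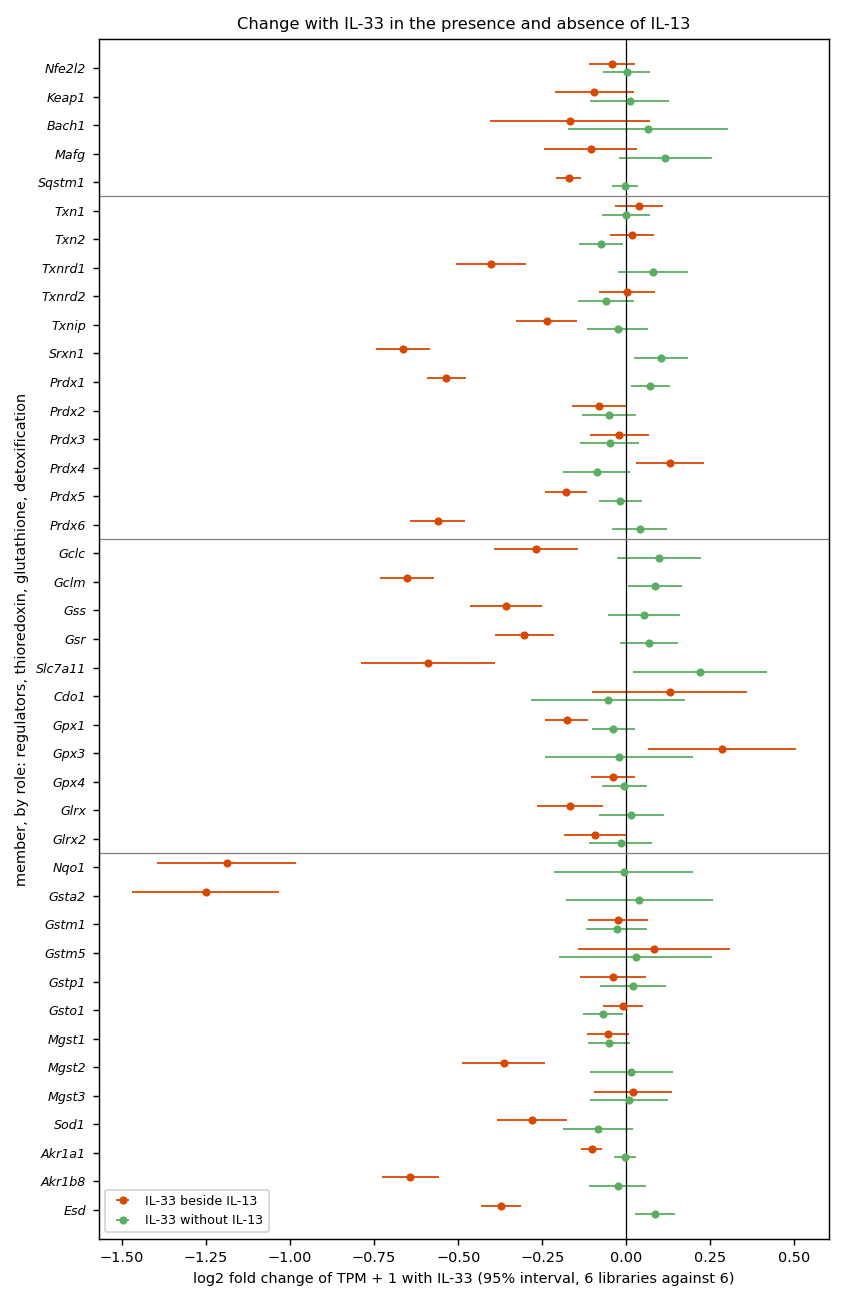
Log2 fold change of TPM + 1 with IL-33 and its 95% interval, for the 41 tested genes by role (rows), beside IL-13 (orange) and without IL-13 (green), 6 libraries against 6 in each. The orange points of Nqo1 and Gsta2 lie farthest to the left, at -1.19 and -1.25, while the green points of all 41 genes lie between -0.089 and 0.22.

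Each stimulated group was also set against the same untreated libraries. With IL-33+IL-13, 8 of the 41 rose and 14 fell (25% of all genes called, 11.1% higher and 14% lower). With the triple combination 8 rose and 10 fell (28.1% called, 10.3% higher and 17.7% lower), and 15 fell once replicate 2 of the triple combination was left out. With IL-13+IL-17A, 17 rose and 9 fell (29.5% called, 14% higher and 15.5% lower). Gclm averaged 41.3 ± 3.12 TPM with the triple combination, 39.8 ± 0.818 TPM with IL-33+IL-13, 65.4 ± 1.1 TPM with IL-13+IL-17A and 31.3 ± 1.63 TPM in untreated cells (SD, n = 3 each).

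IL-17A, a cytokine of neutrophilic inflammation, was called in 0 of the 41 genes, beside IL-13 or without it, and so was its interaction with IL-13. In each of these 3 comparisons 0 of all tested genes were called by limma (0% called). At an unadjusted p under 0.05 there were 3, 2 and 6 of the 41 genes and 608, 473 and 665 of all genes, and voom called 0, 0 and 1 of all genes. The log2 fold changes of the 41 ran from -0.14 to 0.23 beside IL-13 and from -0.11 to 0.075 without it, with all 95% intervals within 0.5 of zero. Nqo1 averaged 8.02 ± 0.183 TPM with IL-13+IL-17A and 8.3 ± 0.605 TPM with IL-13, while Gclm averaged 65.4 ± 1.1 TPM with IL-13+IL-17A and 63.3 ± 2.16 TPM with IL-13 (SD, n = 3 each). Against untreated cells 0 of the 41 were called with IL-33+IL-17A, with IL-33 or with IL-17A (0% of all genes called in each). At an unadjusted p under 0.05 limma found 2, 2 and 3 of the 41 genes and 501, 484 and 469 of all genes.

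The other genes of these pathways were read from 5 lists drawn up with results of these data known. Their counts stand beside the shares over all tested genes given above, 20% higher and 30.9% lower in the IL-13 average and 2.53% higher and 4.48% lower with IL-33 beside IL-13. Of 16 other regulators 13 were tested, and 3 rose and 6 fell with IL-13 on average. Maff, a small Maf, averaged 86 ± 1.89 TPM with IL-13 and 59.4 ± 2.84 TPM in untreated cells (log2 fold change over backgrounds 0.60, limma adjusted p = 1.48e-12), and Atf4, the transcription factor of the amino acid response, changed by 0.29. Mafk fell by 0.28 and Park7 by 0.12. Maff and Atf4 rose further with IL-33 beside IL-13, by 0.22 (limma adjusted p = 0.00159) and 0.083 (adjusted p = 0.0145), so these members of the list moved the other way from the 21 genes above, and 1 of the 13 fell.

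Of 19 other thioredoxin and redox repair genes 15 were tested, of which 7 rose and 5 fell with IL-13. Msrb1, a methionine sulfoxide reductase, fell by 0.67 on average, while Aifm2, also known as FSP1, a suppressor of lipid peroxidation, rose by 0.55, Txndc5 by 0.53 and Selenos by 0.45. With IL-33 beside IL-13, 3 rose and 2 fell. The 3 that rose were Selenow (0.24, limma adjusted p = 0.00156), Txndc5 (0.12, adjusted p = 0.0481) and Selenof (0.099, adjusted p = 0.00629). The 2 that fell were Cat, catalase, with 105, 101 and 106 TPM with the triple combination, 104, 108 and 106 TPM with IL-33+IL-13, 143, 142 and 145 TPM with IL-13+IL-17A and 148, 145 and 139.5 TPM with IL-13, and Sod2, mitochondrial superoxide dismutase. Every library with IL-33 and IL-13 was below every library with IL-13 and no IL-33 for both. That separation was found in 3.68% of all tested genes. The log2 fold change was -0.45 for Cat (limma adjusted p = 4.02e-10) and -0.26 for Sod2 (adjusted p = 7.01e-05).

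Of 22 other glutathione genes 17 were tested, of which 6 rose (35.3%, against 20% of all genes) and 4 fell (23.5%, against 30.9%) with IL-13. Glrx5, a mitochondrial glutaredoxin, rose by 0.35, Hagh by 0.33 and Slc3a2, the heavy chain that partners Slc7a11, by 0.15, while Oplah fell by 0.49. With IL-33 beside IL-13, Slc3a2 (by -0.19, limma adjusted p = 1.56e-05) and the glutathione conjugate exporter Abcc1 (by -0.45, adjusted p = 0.00311) were the 2 of 17 that fell, and 0 rose.

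Of 32 other glutathione transferases and detoxification genes 21 were tested, of which 6 rose (28.6%, against 20% of all genes) and 9 fell (42.9%, against 30.9%) with IL-13. Ugt1a7c, a glucuronosyltransferase that shares exons with its relatives, fell by 0.64 on average and Aldh2 by 0.23, while Cbr3 rose by 0.28 and Ptgr1, prostaglandin reductase, by 0.24. With IL-33 beside IL-13, 1 rose and 6 fell. Ptgr1 had 43.6, 45.4 and 37.9 TPM with the triple combination, 42.4, 41.1 and 43.4 TPM with IL-33+IL-13, 66.9, 71.1 and 69.1 TPM with IL-13+IL-17A and 65.8, 72.8 and 69.4 TPM with IL-13. Its log2 fold change with IL-33 beside IL-13 was -0.70 (limma adjusted p = 1.19e-09), and that of Cbr3, a carbonyl reductase, was -0.39 (adjusted p = 3.44e-05).

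The last list holds sources of reactive oxygen, led by the phagocyte NADPH oxidase. Of its 12 genes 8 were tested, and 7 fell and 1 rose with IL-13, with a median log2 fold change of -0.53. Cybb, the catalytic gp91phox subunit, had 265, 188 and 267 TPM with the triple combination, 259.7, 283 and 250.5 TPM with IL-33+IL-13, 336, 345 and 333 TPM with IL-13+IL-17A and 344, 333 and 348 TPM with IL-13. In the absence of IL-13 there were 714, 793 and 719 TPM with IL-33+IL-17A, 705, 734 and 767 TPM with IL-33, 723, 643 and 768 TPM with IL-17A and 635, 742 and 732 TPM in untreated cells. All 12 libraries with IL-13 were below all 12 without, with an average log2 fold change of -1.30 (limma adjusted p = 5.89e-14). The cytosolic subunits Ncf1 and Ncf4 fell by 1.13 and 0.62, and the GTPase Rac2 by 0.44. With IL-33 beside IL-13, 4 of the 8 fell and 0 rose, among them Cybb (-0.44, adjusted p = 4.51e-04).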

How the data were processed

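Total RNA of primary alveolar macrophages gave 24 libraries; per the labels' protocols the sequencer was an Illumina NovaSeq. The submitters' processing notes name STAR and mm10. How reads were counted, and whether by strand, is not stated in the labels or files. The authors deposited 1 table of TPM per library, for 17017 genes. Its length column equals the gene's span, introns included, for 100% of genes, so TPM levels are compared between libraries and not between genes. TPM times span was a whole multiple of a constant of each library in 90.2% to 91.7% of values worth up to 20 reads (tolerance 0.05 reads, 10% expected of an arbitrary constant). That constant was the one with the highest such share in a search limited to depths of 5 to 16 M reads, since multiples of the true depth score alike, so the share is a fit and not a separate check, and it gave the recovered reads. Depths cover counting error only. Coordinates are 1-based on mm10.

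limma-trend (limma 3.58.1, R 4.3.3) was fitted to log2(TPM + 1) for the 13215 genes that reached 1 TPM in 3 or more libraries, with 8 group means, 24 libraries and 16 residual degrees of freedom. P-values were Benjamini-Hochberg adjusted over the 13215 genes of a comparison, and genes were called under 0.05. They rest on the variation among libraries, which may be technical only. The script was tested on simulated data. Values are given per library for genes called with an absolute log2 fold change of at least 0.5 in the IL-13 average or in IL-33 beside IL-13, and for Nfe2l2, Keap1, Nqo1, Gclc, Gclm, Slc7a11, Srxn1, Txnrd1 and Sqstm1; of other lists up to 4 and 2 called genes with the smallest p are named, and all other genes named were chosen after their values were seen. The genes, lists and tests were chosen with earlier results of these data known. Alternatives were another pseudocount, 2 other filters, median-ratio scaling, voom on recovered reads, fits of the compared groups only, and libraries left out. Promoters came from RefSeq (GRCm38.p6). Markers absent from the tables were not analysed here.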

Additional observations from a re-analysis of the deposited data

Results flagged for a closer look

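The effect of IL-33 differed between cells with and without IL-13 in 17 of the 41 tested genes, by the interaction in the limma fit, and each of the 17 was lower. On the log2(TPM + 1) scale the interaction was -1.29 (adjusted p = 1.99e-05) for Gsta2 and -1.18 (adjusted p = 2.95e-05) for Nqo1. It was -0.81 (adjusted p = 0.0011) for Slc7a11, -0.77 (adjusted p = 6.03e-08) for Srxn1 and -0.74 (adjusted p = 9.74e-08) for Gclm. For Akr1b8 it was -0.62 (adjusted p = 2.03e-06), for Prdx1 -0.61 (adjusted p = 2.38e-08) and for Prdx6 -0.60 (adjusted p = 2.03e-06). Txnrd1 stood at -0.48 (adjusted p = 3.13e-04), Esd at -0.46 (adjusted p = 1.20e-06) and Gss at -0.41 (adjusted p = 0.00204). Mgst2 stood at -0.38 (adjusted p = 0.0114), Gsr at -0.37 (adjusted p = 6.99e-04) and Gclc at -0.37 (adjusted p = 0.0163). The smallest were Sqstm1 at -0.17 (adjusted p = 4.56e-04), Prdx5 at -0.16 (adjusted p = 0.039) and Akr1a1 at -0.10 (adjusted p = 0.0115). With voom the calls of Sqstm1, Prdx5 and Akr1a1 were lost (adjusted p = 0.0789, 0.388 and 0.643), and that of Txnip was gained (adjusted p = 0.0278). The interaction of IL-17A with IL-13 was called in 0 of the 41.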

How the results depend on the processing

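Of 405 counts recomputed under settings other than leaving out single libraries, 379 stayed within 1.5 times the reported count. For IL-13 beside IL-33 and IL-17A, the 13 genes that fell became 6 with median-ratio scaling, 6 with voom, 6 in a fit of the compared groups only and 5 without the 4 libraries whose titles number above 24, the 8 that rose became 5 in the compared groups, and the 4321 genes called of all became 1847 in the compared groups and 2068 without the 4. These 4 are all of IL-33 groups (1 of IL-33, 2 of IL-33+IL-17A and 1 of the triple combination), and whether they were run apart from the rest is not given in the sources used here. Sqstm1 there changed sign with median-ratio scaling, to 0.017 (adjusted p = 0.779), while the median of all genes moved from -0.094 to -0.008. In the same comparison Txnrd1, Gclc, Slc7a11 and Nqo1 joined the genes called higher, both with median-ratio scaling and by voom. For IL-33 beside IL-13 the 926 of all genes became 614 in the compared groups, 340 with IL-17A absent and 469 with it present. For the interaction of IL-33 and IL-13, the 472 of all genes became 289 and the 0 that rose became 1 (Prdx4) without the 4, where 13 of the 17 that fell were called and Gclc, Mgst2, Prdx5 and Akr1a1 were not; with IL-33 beside IL-13, 20 fell without the 4. Counts of 0 over all genes became 1 for IL-33 without IL-13 (no filter; compared groups), 1 for IL-17A without IL-13 (compared groups), 1 for the interaction of IL-17A and IL-13 (5 TPM filter; voom), and 3, 5 and 3 for IL-33, IL-17A and IL-33+IL-17A against untreated cells (compared groups). For IL-33+IL-13 against untreated cells 8 rising genes became 5 (compared groups) and 14 falling became 8 (median-ratio). For the triple combination against untreated cells 8 rising became 4, 10 falling became 5, and 3710 of all genes became 1508 in the compared groups, with 6 falling under median-ratio scaling. The cause was not tested. Fits of the compared groups only do not exist where a comparison uses all 8.

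Leaving out each library in turn, the genes that fell with IL-33 beside IL-13 numbered 20 to 21 and those that rose 0 to 1, Prdx4 without replicate 3 of the triple combination. Under the interaction 16 to 18 fell and 0 to 1 rose. With IL-13 alone 18 to 20 rose and 8 to 9 fell, and with the triple combination against untreated cells 8 to 15 fell. Over all genes the interaction of IL-17A and IL-13, and IL-33 without IL-13, gave 0 to 1. Prdx2 with IL-13 alone lost its call in 15 of the 24 fits, Prdx5 under the interaction in 16 and Glrx with IL-33 beside IL-13 in 6. No paired analysis was possible because the labels give no number shared between groups, and replicate numbers only name libraries. Depth limits Cdo1, Gsta2 and Nqo1, which rest on few reads in the groups where they are low.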
